A study of Homo sapiens with 6 samples.

Results

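The 10 genes described here encode the 5 subunits of the transcription factor NF-κB (NFKB1, NFKB2, RELA, RELB and REL) and 5 of its regulators (NFKBIA, NFKBIE, BCL3, TNFAIP3 and BIRC3). They were taken by symbol from a table of read counts for 56303 genes, and all 10 were found in it. RNA-seq was performed on the human bladder cancer cell line T24 after transfection with a control siRNA (siNC, genotype given as WT) or with siRNA against the F-box gene FBXL6 (siFBXL6, genotype given as FBXL6 knockdown). There were 3 libraries in each group, all from cells kept in medium with fetal bovine serum and all carrying the same batch label. The purpose stated for the experiment was to find how FBXL6 acts on tumor growth and metastasis. The labels do not tell whether the libraries of a group came from separate cultures, so p-values measure the spread between these samples, which may be technical.

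NF-κB proteins bind DNA as dimers, and in resting cells most dimers are held in the cytoplasm by inhibitors of the IκB family. Receptors for tumor necrosis factor, interleukin-1 and microbial products activate the IκB kinases, the inhibitor is degraded, and the dimers enter the nucleus. Several of the genes they switch on encode subunits or inhibitors of the pathway itself, which gives it both reinforcing and damping loops.

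The siNC libraries held 58646515, 60967902 and 56814946 counts, and the siFBXL6 libraries 60968158, 60898556 and 60754015. The siRNA target, FBXL6, stood at 6.19, 6.70 and 6.93 CPM (read counts scaled to a common library size with TMM factors) in siNC replicates 1, 2 and 3 and at 6.58, 5.70 and 5.81 CPM in the siFBXL6 replicates. The groups overlapped, with a log2 fold change (siFBXL6 over siNC) of -0.13 (95% interval -0.31 to 0.05, adjusted p = 0.247, edgeR quasi-likelihood test). The count of the target did not set the groups apart, so the libraries are named by their labels. Other genes of the table cover 37% of its exon bases, 5.3% on its own strand and 31.7% on the other, so its count is uncertain. ACTB, a housekeeping gene, was at 1168 ± 24.5 CPM with siNC and 1168 ± 25.8 CPM with siFBXL6 (SD, n = 3 each). These are bulk samples, in which fewer cells of a kind and less RNA per cell cannot be told apart.

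All 10 members had enough counts to be tested. At an adjusted p under 0.05, 7 of them were called (6 higher and 1 lower with siFBXL6), while 40.2% of the 21298 genes tested were called, 20.5% higher and 19.8% lower. Of the 21298, 16193 averaged 1 CPM or more, as all 10 members did, and genes with fewer counts are harder to call. The 6 higher genes were NFKB1, NFKB2, RELA, RELB, TNFAIP3 and BIRC3, and the lower gene was BCL3. The same 7 genes had no overlap between the groups, as had 48.2% of all genes tested. BIRC3 was the only member called that also differed by at least 2-fold, and 2.92% of the genes tested were both called and at least 2-fold apart. The median log2 fold change was 0.17 over the members and -0.01 over all genes tested. The members were chosen with earlier results of these data known, so these contrasts are descriptions and not a test of the set. The smallest p that an exact permutation test of 3 against 3 libraries can give is 0.1, so the calls rest on the spread estimated across all genes.

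**Figure D1:**
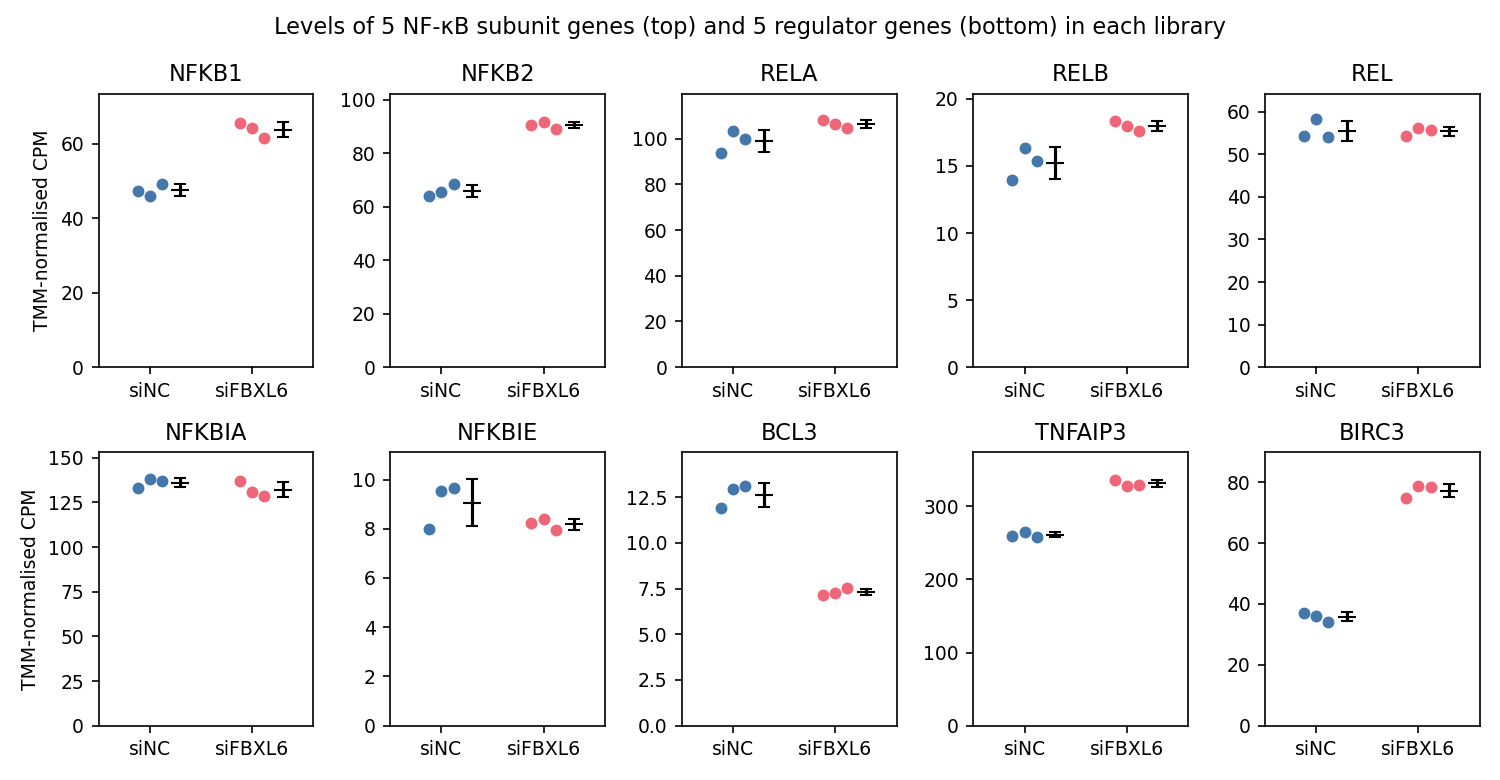
TMM-normalised CPM (y axis, starting at 0) of the 5 subunit genes and the 5 regulator genes in each library; points are single libraries, and the black bar beside them is the mean ± SD (n = 3). The groups are apart for 7 genes and overlap for REL, NFKBIA and NFKBIE.

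Among the subunits, the genes for the 2 precursor proteins rose most. NFKB2 (chromosome 10, 102394110 to 102402529, GRCh38) encodes the precursor that is processed in the non-canonical branch of the pathway. It was at 64.0, 65.5 and 68.5 CPM in siNC replicates 1, 2 and 3 and at 90.7, 91.6 and 89.3 CPM in the siFBXL6 replicates. Every library labelled siFBXL6 lay above every library labelled siNC, by more than the spread within either group. The log2 fold change was 0.46 (95% interval 0.39 to 0.52, adjusted p = 1.94e-13, edgeR quasi-likelihood test), a size reached in either direction by 17.1% of all genes tested and by 10.8% of the 16193 that averaged 1 CPM or more.

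NFKB1 (chromosome 4, 102501329 to 102617302) encodes the precursor of the usual partner of RELA. Its level was 47.5, 46.0 and 49.2 CPM in the siNC libraries and 65.5, 64.4 and 61.5 CPM in the siFBXL6 libraries. The groups were again apart. The log2 fold change of 0.42 (95% interval 0.35 to 0.50, adjusted p = 1.83e-11, edgeR) lay within the interval of NFKB2.

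Of the genes for the Rel proteins, which carry the transactivation domains, RELB and RELA rose less and REL was not called. RELB, the main partner of the NFKB2 product, was at 13.9, 16.3 and 15.4 CPM in the siNC libraries and at 18.3, 18.0 and 17.6 CPM in the siFBXL6 libraries, a log2 fold change of 0.24 (95% interval 0.12 to 0.36, adjusted p = 0.00139, edgeR). RELA, the principal transactivating subunit of the canonical pathway, was at 93.6, 103 and 100 CPM against 108, 106 and 105 CPM. For both genes siNC replicate 1 was the lowest library, and the gap between the groups was small. For RELA the log2 fold change was 0.10 (95% interval 0.03 to 0.17, adjusted p = 0.0134, edgeR). Of the 16193 genes that averaged 1 CPM or more, 32.3% differed at least as far as RELB and 64.9% as far as RELA. RELA missed the threshold when siNC replicate 1 was left out (log2 fold change 0.06, adjusted p = 0.0936), when siFBXL6 replicate 1 was (0.09, 0.0791) and with scaling by library size alone (0.08, 0.0588). Over the 14 alternatives its adjusted p in edgeR, DESeq2 or limma ran from 0.00427 to 0.0936.

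REL, which encodes c-Rel, a subunit best known from lymphocytes, was at 54.3, 58.2 and 54.1 CPM in the siNC libraries and 54.3, 56.1 and 55.7 CPM in the siFBXL6 libraries. The groups overlapped, and the log2 fold change was -0.00 with a 95% interval from -0.08 to 0.07 (adjusted p = 0.938, edgeR). Its sign changed when siNC replicate 2 or siFBXL6 replicate 1 was left out. Of the exon bases of REL, 50.7% are also listed for RP11-373L24.1 on the same strand, with 2174, 2458 and 2103 counts in the siNC libraries and 2182, 2271 and 2247 in the siFBXL6 libraries. The level of REL is uncertain for that reason.

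**Figure D2:**
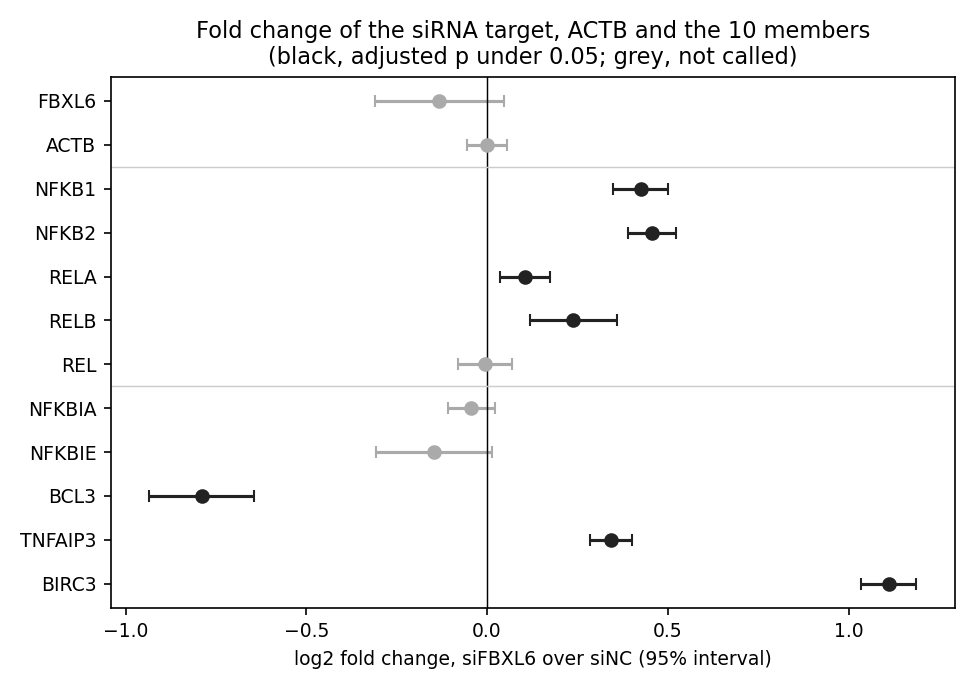
Log2 fold change, siFBXL6 over siNC (x axis), of the siRNA target FBXL6, ACTB and the 10 members; points are estimates from edgeR's quasi-likelihood fit and bars are 95% intervals. The intervals of FBXL6, ACTB, REL, NFKBIA and NFKBIE include 0, and those of BIRC3 (1.03 to 1.19) and BCL3 (-0.93 to -0.65) lie farthest from it.

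The promoters of these genes are shown because the members include known targets of NF-κB. RefSeq promoters (GRCh38.p14) were at hand for 8 of the 10 members, in 12 windows; RELB and NFKBIE had none. The 250 bases before each start were searched on both strands for the NF-κB consensus GGGRNWYYCC, a 10-base motif (R is A or G, W is A or T, Y is C or T, N is any base). It was found in 7 of the 12 windows, which belong to 6 members (NFKB1, NFKB2, REL, NFKBIA, TNFAIP3 and BIRC3), and in 5.21% of the 35116 promoter windows of all genes. Counted by gene, 6 of the 8 members and 6.28% of 27305 genes had a match. No match was found in the windows of RELA and BCL3. Stretches of 30 bases around every match follow, except 2 that lie 1 base on from a printed match, read along the gene, with the match in capitals.
BIRC3, chr11:102317275-102317304, plus strand: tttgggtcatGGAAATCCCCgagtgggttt
BIRC3, chr11:102317339-102317368, plus strand: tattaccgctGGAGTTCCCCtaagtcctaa
NFKB1, chr4:102501300-102501329, plus strand: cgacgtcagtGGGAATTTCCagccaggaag
NFKB2, chr10:102394461-102394490, plus strand: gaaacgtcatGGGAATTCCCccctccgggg
NFKB2, chr10:102394490-102394519, plus strand: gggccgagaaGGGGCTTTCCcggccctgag
NFKB2, chr10:102395519-102395548, plus strand: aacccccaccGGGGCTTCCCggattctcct
NFKB2, chr10:102395674-102395703, plus strand: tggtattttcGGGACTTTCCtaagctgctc
TNFAIP3, chr6:137867182-137867211, plus strand: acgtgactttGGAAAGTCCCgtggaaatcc
TNFAIP3, chr6:137867194-137867223, plus strand: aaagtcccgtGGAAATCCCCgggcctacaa
NFKBIA, chr14:35404811-35404840, minus strand: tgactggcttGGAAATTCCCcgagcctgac
REL, chr2:60881517-60881546, plus strand: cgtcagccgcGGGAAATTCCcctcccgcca
The matches printed for BIRC3, TNFAIP3 and NFKBIA fit the consensus on the strand opposite to the gene. The stretches of BIRC3 and NFKBIA lie upstream of the exons listed in the count table. Of the 4 NFKB2 stretches, those at 102394461 and 102394490 lie inside a listed exon and the one at 102395519 in an intron. The TNFAIP3 stretch at 137867194 also lies in an exon, and the others are partly exonic. The first NFKB2 match reads as a match on both strands and overlaps another, shifted by 1 base; the REL match also overlaps another. Matches were found in members that were called (BIRC3, NFKB1, NFKB2, TNFAIP3) and in members that were not (NFKBIA, REL), and a match of letters does not show that the factor binds there.

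To compare the subunits with each other, levels were divided by exon length. Summed over the 5 subunit genes, the level was 48.4, 51.4 and 51.3 CPM per kilobase in the siNC libraries and 61.3, 61.1 and 59.6 in the siFBXL6 libraries. RELA made up 35.9 ± 0.742% of that sum in the libraries labelled siNC and 32.1 ± 0.192% in those labelled siFBXL6 (SD, n = 3 each). NFKB2 made up 29.2 ± 0.725% and 33.3 ± 0.256% (SD, n = 3 each). Shares are relative, and the level of RELA itself was 18.1 ± 0.912 CPM per kilobase with siNC and 19.5 ± 0.319 with siFBXL6 (SD, n = 3 each). RELA was thus the most abundant subunit transcript per length in each siNC library and NFKB2 in each siFBXL6 library. The ratio of NFKB2 to RELA was 0.833, 0.772 and 0.835 in the siNC libraries and 1.02, 1.05 and 1.04 in the siFBXL6 libraries. This order depends on the lengths used, since without division by length the ratio was 0.668 ± 0.0294 and 0.851 ± 0.0112 (SD, n = 3 each), below 1 in both groups.

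NFKB1 made up 15.1 ± 0.724% of the sum with siNC and 16.8 ± 0.295% with siFBXL6, and REL, whose level is uncertain, 9.79 ± 0.378% and 8.10 ± 0.222% (SD, n = 3 each). For both shares the groups did not overlap. The level of REL itself was 4.93 ± 0.206 and 4.92 ± 0.0860 CPM per kilobase (SD, n = 3 each), with overlap. The share of REL depends on the lengths used, and was 19.6 ± 0.682% and 16.6 ± 0.424% without division by length (SD, n = 3 each). The share of RELB was 9.95 ± 0.501% and 9.75 ± 0.0809% (SD, n = 3 each), with overlap. It also depends on the lengths, and was 5.37 ± 0.278% and 5.38 ± 0.0537% without division by length (SD, n = 3 each), again with overlap. The ratio of RELB to NFKB2 was 0.341 ± 0.0249 in the libraries labelled siNC and 0.293 ± 0.00469 in those labelled siFBXL6 (SD, n = 3 each). The ratio of RELA to NFKB1 was 2.39 ± 0.167 and 1.91 ± 0.0327 (SD, n = 3 each). Both ratios were lower in every library labelled siFBXL6. These shares and ratios are descriptions without a test.

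**Figure D3:**
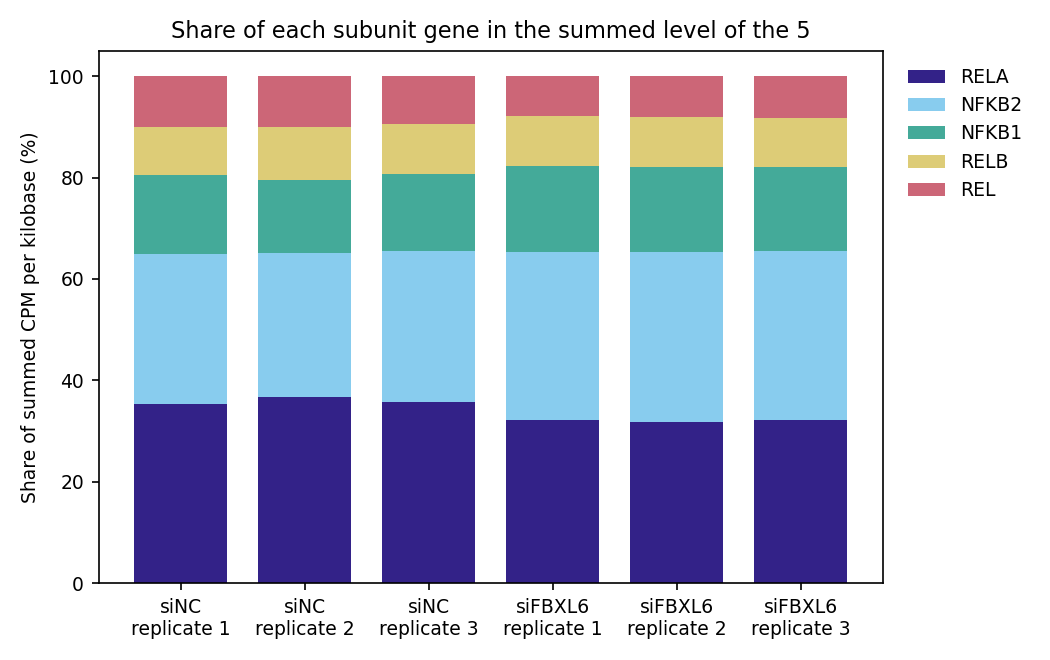
Share of each subunit gene in the summed CPM per kilobase of the 5 (y axis, percent) in each library. The RELA segment is larger in the siNC libraries (mean 35.9%) than in the siFBXL6 libraries (mean 32.1%), and the NFKB2 segment is smaller (29.2% against 33.3%). Shares are relative, and the level of RELA itself was not lower with siFBXL6.

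Neither of the IκB genes NFKBIA and NFKBIE was called. NFKBIA encodes IκBα, the inhibitor that is resynthesised after activation and takes dimers back out of the nucleus. It was at 133, 138 and 137 CPM in the siNC libraries and 137, 131 and 129 CPM in the siFBXL6 libraries. The ranges overlapped, and the log2 fold change of -0.04 had a 95% interval from -0.11 to 0.02 (adjusted p = 0.303, edgeR). At this depth a rise of the size seen for NFKB1 or NFKB2 lies outside that interval.

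NFKBIE encodes IκBε, a slower-acting inhibitor. It was at 7.98, 9.55 and 9.67 CPM in the siNC libraries and 8.24, 8.38 and 7.95 CPM in the siFBXL6 libraries. Again siNC replicate 1 was the lowest of its group, and it fell among the siFBXL6 values. The log2 fold change was -0.15 (95% interval -0.31 to 0.01, adjusted p = 0.141, edgeR), and without siNC replicate 1 it was -0.23 with an adjusted p of 0.0186. Over the 14 alternatives its adjusted p in edgeR, DESeq2 or limma ran from 0.0186 to 0.405. Taken per kilobase, NFKBIA and NFKBIE together stood at 1.22, 1.20 and 1.20 times the subunit sum in the siNC libraries and at 0.992, 0.955 and 0.962 times in the siFBXL6 libraries. The ratio was lower in each library labelled siFBXL6, but its size depends on the lengths and genes used. It was 0.513 ± 0.00337 and 0.420 ± 0.00928 without division by length (SD, n = 3 each). With REL left out of the sum, chosen after seeing the data, it was 1.34 ± 0.0177 and 1.06 ± 0.0194 (SD, n = 3 each). NFKBIB, which encodes the classical inhibitor IκBβ, is not a member and was singled out after its values were seen. It was at 26.8, 27.6 and 29.6 CPM in the siNC libraries and 34.1, 33.2 and 31.7 CPM in the siFBXL6 libraries. The groups were apart, with a log2 fold change of 0.24 (adjusted p = 8.00e-05, edgeR). With NFKBIB added, which was chosen after seeing the data, the inhibitor ratio was 1.46, 1.43 and 1.45 in the siNC libraries and 1.23, 1.19 and 1.19 in the siFBXL6 libraries, lower in each of the latter. Without division by length it was 0.612 ± 0.00531 and 0.519 ± 0.0113 (SD, n = 3 each), so whether it lies above or below 1 depends on the lengths.

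BCL3 is an atypical, nuclear member of the IκB family that binds dimers of the processed NFKB1 and NFKB2 products and can raise or lower transcription. Its level was 11.9, 12.9 and 13.1 CPM in the siNC libraries and 7.14, 7.27 and 7.52 CPM in the siFBXL6 libraries. It was the only member called lower, with the groups far apart. The log2 fold change was -0.79 (95% interval -0.93 to -0.65, adjusted p = 3.71e-11, edgeR), and 2.8% of the 16193 genes had one as large in either direction. Per kilobase, the ratio of BCL3 to NFKB2 was 0.265 ± 0.00810 in the libraries labelled siNC and 0.112 ± 0.00410 in those labelled siFBXL6 (SD, n = 3 each).

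TNFAIP3 encodes A20, a ubiquitin-editing enzyme that damps signalling upstream of the IκB kinases. It was at 260, 265 and 258 CPM in the siNC libraries and 336, 328 and 329 CPM in the siFBXL6 libraries. The libraries of a group lay close together and the groups were apart. The log2 fold change was 0.34 (95% interval 0.28 to 0.40, adjusted p = 7.40e-12, edgeR). RP11-356I2.4 on the opposite strand covers 1.88% of its exon bases. Per kilobase, TNFAIP3 stood at 0.916, 0.903 and 0.885 times NFKBIA in the siNC libraries and at 1.15, 1.18 and 1.20 times in the siFBXL6 libraries, so the most abundant member per length was NFKBIA in the siNC libraries and TNFAIP3 in the siFBXL6 libraries. Without division by length the ratio was 1.92 ± 0.0336 and 2.51 ± 0.0497 (SD, n = 3 each), above 1 in both groups.

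BIRC3 (chromosome 11, 102317450 to 102339403) encodes cIAP2, a ubiquitin ligase of the tumor necrosis factor receptor complex that also restrains the non-canonical pathway. Its level was 37.0, 36.1 and 34.2 CPM in the siNC libraries and 74.8, 78.8 and 78.4 CPM in the siFBXL6 libraries. The lowest siFBXL6 library was above the highest siNC library by more than the range within either group. The log2 fold change was 1.11 (95% interval 1.03 to 1.19, adjusted p = 2.76e-22, edgeR), a 2.16-fold difference and the 38th smallest p of the genes tested. BIRC2, its paralog, singled out after its values were seen, was at 138 ± 4.42 and 139 ± 2.60 CPM (SD, n = 3 each) and was not called (log2 fold change 0.01, adjusted p = 0.779, edgeR). The sign for BIRC2 turned with upper-quartile factors, with library size alone and without siNC replicate 2. Per kilobase, BIRC3 stood at 0.156 ± 0.0105 times BIRC2 in the libraries labelled siNC and 0.334 ± 0.00634 times in those labelled siFBXL6 (SD, n = 3 each). Without division by length the ratio was 0.259 ± 0.0174 and 0.554 ± 0.0105 (SD, n = 3 each).

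Over the 6 libraries, the 5 genes whose centred log2 CPM lay nearest to that of BIRC3 among 16192 others were IL6R, MICAL2, SAMD4A, HBEGF and DAPP1, at Euclidean distances of 0.0528 to 0.131. IL6R, the interleukin-6 receptor chain, was at 17.2, 16.7 and 15.8 CPM in the siNC libraries and 35.7, 37.3 and 35.9 CPM in the siFBXL6 libraries. HBEGF, an EGF receptor ligand, went from 97.5 ± 1.61 to 217 ± 3.66 CPM (SD, n = 3 each). With 2 groups so far apart, nearness mainly means a like fold change, and the 5 had log2 fold changes from 1.06 to 1.19. The choice was not firm, since only 2 of the 5 were found again without siNC replicate 3 or without siFBXL6 replicate 2, and 3 without siNC replicate 2 or without siFBXL6 replicate 3.

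In order of level per kilobase, the siNC libraries had NFKBIA at 57.4 ± 1.11, TNFAIP3 at 51.7 ± 0.732, RELA at 18.1 ± 0.912, NFKB2 at 14.7 ± 0.518 and NFKB1 at 7.60 ± 0.258 CPM per kilobase (SD, n = 3 each). RELB, REL and BIRC3 followed at 5.02 ± 0.404, 4.93 ± 0.206 and 4.76 ± 0.191 and did not differ beyond their spread. This tie depends on the lengths used, and the level of REL is uncertain. Before division by length, RELB, REL and BIRC3 were at 15.2 ± 1.23, 55.5 ± 2.32 and 35.8 ± 1.44 CPM with siNC (SD, n = 3 each). BCL3 and NFKBIE came last at 3.90 ± 0.203 and 3.51 ± 0.364 (SD, n = 3 each), within their spread over libraries, though NFKBIE stood at 0.844, 0.928 and 0.927 times BCL3, below it in each siNC library. Among siFBXL6 libraries, BIRC3 at 10.3 ± 0.295 had come level with NFKB1 at 10.2 ± 0.329, and BCL3 at 2.25 ± 0.0585 was below NFKBIE at 3.17 ± 0.0849 (SD, n = 3 each). The place of BIRC3 depends on the lengths used, since without division by length it stood at 0.754 ± 0.0507 times NFKB1 with siNC and 1.21 ± 0.0670 times with siFBXL6 (SD, n = 3 each). BIRC3 thus moved up and BCL3 to the last place in that order.

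The rest of the pathway was described with 5 lists of 81 further genes, of which 80 were tested and CD40, at 2 to 6 counts a library, was not. At an adjusted p under 0.05, 53 of the 80 were called, 38 higher and 15 lower, a share of 66.2% beside 40.2% of all genes tested. Called higher were 47.5% of the 80 and 20.5% of all genes tested, and 19.8% of all genes tested were called lower. The median log2 fold change of the 80 was 0.14. The lists were chosen with earlier results of these data known, so these shares and those of each list are descriptions and not a test.

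Receptors were called in 9 of 11 cases, 6 higher and 3 lower, with a median log2 fold change of 0.34. IL1RAP, the accessory chain of the interleukin-1 receptor, rose from 12.5 ± 0.485 to 20.5 ± 1.19 CPM (SD, n = 3 each; log2 fold change 0.72, adjusted p = 3.76e-12, edgeR). TNFRSF1B, the second receptor for tumor necrosis factor, was low, at 1.96 ± 0.254 and 4.16 ± 0.436 CPM (SD, n = 3 each; log2 fold change 1.08, adjusted p = 1.96e-08). TNFRSF12A had a log2 fold change of 0.39, and LTBR, the lymphotoxin receptor gene that feeds the non-canonical branch, one of -0.17 (adjusted p = 3.70e-05). Other genes of the table cover 6.72% of the exon bases of LTBR on the opposite strand and 4.63% of those of IL1RAP on the same strand.

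Called genes of the kinase list and of the adaptor list lay in both directions, and the lists had medians near 0. The kinase list held 12 genes for IκB kinases, upstream kinases and their adaptor or regulatory proteins (TAB1, TAB2, TAB3, TANK and IKBKG). Of these 12, 4 were higher and 4 lower, with a median of 0.02. MAP3K7, which encodes TAK1, rose by 0.40 on the log2 scale (adjusted p = 3.91e-10, edgeR), TBK1, with 14.7% of its exon bases under a gene on the opposite strand, rose by 0.24, and TAB2, an adaptor of TAK1, fell by 0.23. The adaptor list held 19 genes for adaptors and for enzymes of ubiquitin transfer, and also the kinase-family genes RIPK1, IRAK1, IRAK2 and IRAK4. Of these 19, 6 were higher and 5 lower, with a median of 0.06. IRAK1, IRAK2 and BTRC had log2 fold changes of 0.39, 0.19 and 0.21, and SHARPIN, a part of the linear ubiquitin ligase, one of -0.18. The count of 11 called genes in the adaptor list was 7 with DESeq2, without siNC replicate 2 and without siNC replicate 3.

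A list of 14 genes held other IκB genes, deubiquitinase genes and further regulators such as TNIP3, ITCH, ZC3H12A and N4BP1. Of these 14, 7 were higher and 2 lower, with a median of 0.11. The 2 lower genes were ZC3H12A and N4BP1. CYLD, a deubiquitinase that opposes the pathway, rose from 29.9 ± 0.330 to 47.2 ± 0.195 CPM (SD, n = 3 each; log2 fold change 0.66, adjusted p = 1.18e-15, edgeR). TNIP3, an A20-binding protein, was counted 185, 152 and 158 times in the siNC libraries and 509, 510 and 559 times in the siFBXL6 libraries, a log2 fold change of 1.64. NFKBIZ, another nuclear IκB gene, had a log2 fold change of 0.46 where BCL3 had -0.79. ZC3H12A, which encodes an RNase that degrades inflammatory mRNAs, was lower by a log2 fold change of -0.18.

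Target genes were called in 16 of 24 cases, 15 higher and 1 lower, with 6 at least 2-fold higher and a median log2 fold change of 0.66. Called higher were 62.5% of the 24 and 20.5% of all genes tested. At least 2-fold higher were 378 of the 21298 genes tested. Of the target genes not called, VCAM1, CXCL10, CCL2, TNF, LTB and MMP9 were under 1 CPM in both groups, where few counts limit a call, and CXCL3 and CD83 were above it. SDC4, a syndecan, was at 46.6, 47.8 and 47.8 CPM in the siNC libraries and at 139.8, 139.7 and 140.5 CPM in the siFBXL6 libraries. CXCL2, a neutrophil-attracting chemokine, was at 17.2, 17.7 and 17.0 CPM against 54.5, 56.0 and 57.7 CPM. IL1B, the interleukin-1β gene, was at 142, 141 and 146 CPM against 398, 392 and 396 CPM. All 3 were far apart between the groups. IRF1, an interferon-responsive transcription factor, was the target gene called lower, from 94.6 ± 0.991 to 78.2 ± 1.35 CPM (SD, n = 3 each; log2 fold change -0.27, adjusted p = 5.90e-09, edgeR).

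**Figure D4:**
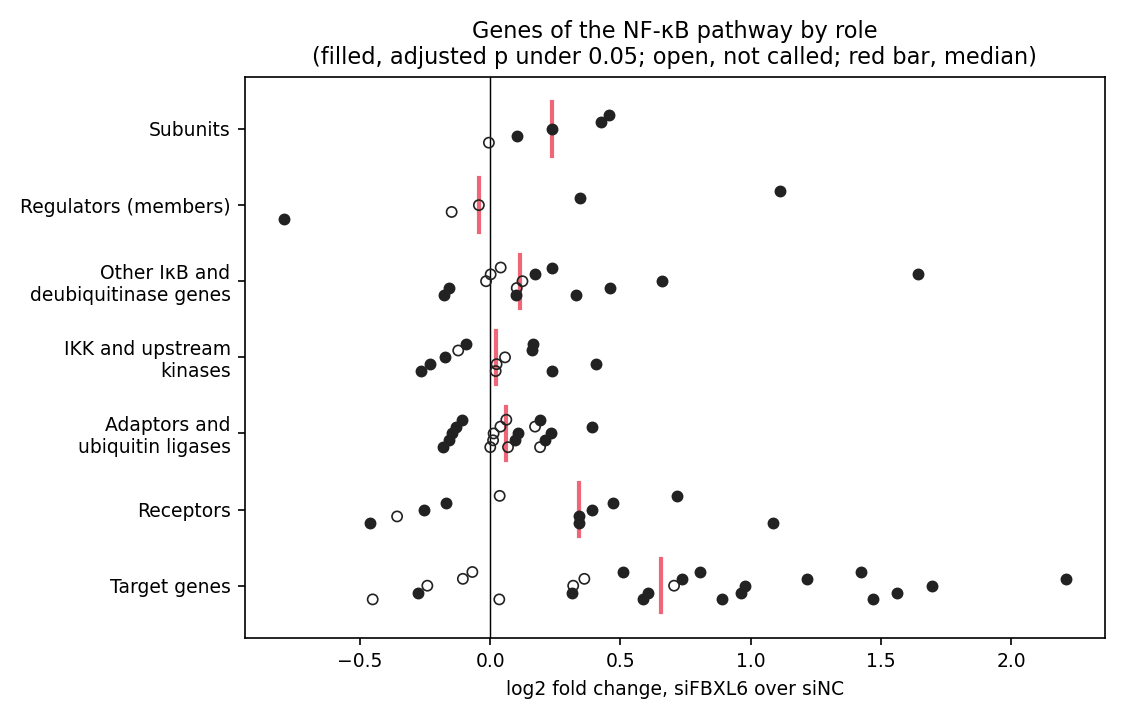
Log2 fold change, siFBXL6 over siNC (x axis), of the tested genes of each role; filled points had an adjusted p under 0.05, open points did not, and the red bar is the median. Target genes spread farthest to the right (median 0.66), while the kinase list (0.02) and the adaptor list (0.06) lie around 0. The kinase row also holds adaptor and regulatory genes, and the adaptor row also holds kinase-family genes. The row of other IκB and deubiquitinase genes also holds other regulators. The lists were chosen with earlier results of these data known.

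Markers were read beside these results. Of 14 epithelial and urothelial markers, KRT7 was the most abundant, at 1038 ± 21.1 CPM in the libraries labelled siNC (SD, n = 3), and UPK1A was at 0 in all libraries, with UPK1B and UPK3A under 1 CPM. Of the 11 tested, 1 was called higher, which was CDH1, and 7 lower. Their summed level was 3952, 3820 and 3936 CPM in the siNC libraries and 3485, 3467 and 3480 CPM in the siFBXL6 libraries. Of 10 leukocyte markers, 9 were under 1 CPM, PTPRC among them, and the summed level of 7.92 to 8.50 CPM in the siNC libraries and 19.0 to 20.9 CPM in the siFBXL6 libraries came mainly from CD68, the only one called. Endothelial markers summed to 2.53 to 2.91 and 3.25 to 4.07 CPM. Their most abundant gene was KDR with siNC, level with VWF, and PECAM1, the only one called, with siFBXL6, level with KDR within the spread. The fibroblast markers, COL1A1 foremost, summed to 36.8 to 38.0 and 32.6 to 34.1 CPM. The 4 mesenchymal markers (1 called higher, 2 lower), FN1 foremost, summed to 2514 to 2659 and 2267 to 2320 CPM. Of the cadherin genes, singled out after their values were seen, CDH1 (epithelial) went from 118 ± 2.71 to 132 ± 2.79 CPM and CDH2 (mesenchymal) from 138 ± 1.83 to 91.7 ± 1.21 CPM (SD, n = 3 each), with log2 fold changes of 0.16 (adjusted p = 5.99e-05, edgeR) and -0.59 (3.80e-17). VIM, which encodes the mesenchymal filament protein vimentin, rose from 15.6 ± 0.513 to 25.4 ± 0.528 CPM (SD, n = 3 each; log2 fold change 0.70, adjusted p = 2.57e-13, edgeR). On the opposite strand, other genes cover 24.4% of the exon bases of VIM and 5.62% of those of CDH1. The part of these differences in the NF-κB values was not tested.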

How the data were processed

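RNA was extracted with TRIzol, and libraries were made with a stranded mRNA kit. The authors deposited 1 table of read counts per gene, without normalization, with exon coordinates and summed exon length. The study's methods name Trimmomatic, HISAT2 and featureCounts on GRCh38, whereas the submitters' processing notes name fastp (0.23.0), STAR and featureCounts (Subread 1.5.1), so the trimmer and aligner are uncertain. The annotation release, the strand setting and the treatment of reads on several genes are not given in the sources used here. Label numbers were read as replicates; siFBXL6-1 and siFBXL6-2 are also names of siRNAs in the study, so which siRNA each library received cannot be told.

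In R (4.3.3) with edgeR (4.0.16) and limma (3.58.1), low counts were removed by the default filterByExpr (21298 of 56303 genes kept). TMM factors and edgeR's quasi-likelihood test were then applied, with group as the only term and Benjamini-Hochberg adjustment over all genes tested. A gene was called at an adjusted p under 0.05. Intervals are 95% intervals from the model. Levels per kilobase are TMM-normalised CPM divided by exon length. Libraries of a group differed by more than sampling noise (chi-square per degree of freedom 2.85 to 6.20). Exon overlaps came from the coordinates in the table, and promoters from RefSeq (GRCh38.p14). The steps were tested on simulated data; a first criterion over genes of every level was not met and was restated for genes of at least 1 CPM, because the missed genes with the larger changes lay under it.

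The members and lists were chosen with earlier results of these data known. Genes named are all members, FBXL6 and ACTB; in each list the 3 smallest adjusted p among called genes, plus the smallest in the less frequent direction if absent; and the 5 nearest genes of each member called at least 2-fold. Other genes named were singled out after their values were seen. The alternatives were DESeq2 (1.42.0), limma-voom, other scalings and filters, a block for replicate, leaving out each library, a 2-fold limit and levels without division by length. Leaving REL out of the subunit sum, adding NFKBIB to the inhibitor ratio, leaving each library out of the shares, and the alternatives for the genes singled out were chosen after seeing the data.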

Additional observations from a re-analysis of the deposited data

How the results depend on the processing

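Of 140 log2 fold changes of the 10 members under 14 alternatives, 134 kept their direction and side of the threshold, RELA lost its call in 3, NFKBIE gained it in 1, and REL, at -0.00, changed sign in 2 (from -0.0235 to 0.0308 with a library left out). The 266 values of the 19 named list genes and the 70 of the 5 genes nearest to BIRC3 kept both. Of 70 values of the 5 genes singled out, 67 did; BIRC2, at 0.01, took -0.00595 with upper-quartile factors, -0.00847 with library size alone and -0.00725 to 0.0384 with a library left out. ACTB, at 0.00, took -0.0192 with upper-quartile factors, -0.0218 with library size alone, -0.000833 without a filter, and -0.0176 to 0.0175 with a library left out. The number of genes called ran from 7451 to 8707. Of these calls 50.9% were higher, and 45.7% with upper-quartile factors and 45.1% with library size alone.

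Members called numbered 6 or 7, and 1 with the 2-fold limit; those called lower numbered 1 to 2 with a library left out. Genes called in the adaptor list were 7 with DESeq2 and 7 to 9 with a library left out. The cause was not tested. Without division by length, the siFBXL6 minus siNC difference in share was -3.08 percentage points for RELA (-3.87 with it) and -3.03 for REL (-1.69), and that in the inhibitor to subunit ratio was -0.0926 (-0.239), as the lengths weigh the genes differently. With REL left out, chosen after seeing the data, the RELA difference was -4.94 and the ratio difference -0.285; with NFKBIB among the inhibitors, also chosen then, it was -0.244.

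With the replicate number as a block, 8408 genes and 7 members were called, and the log2 fold change of BIRC3 was 1.11. Deviations of same-numbered libraries correlated at -0.0361, 0.0135 and -0.0105, and those of other pairs between -0.0304 and 0.0376, so the numbers were not used as pairs. The block changed no call of a member. Without a strand setting or annotation release, named genes may share reads with genes that cover their exons: 50.7% of exon bases for REL, 37% for FBXL6, 24.4% for VIM and 14.7% for TBK1, and at most 6.72% for each of the others examined.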
